A study of Mus musculus with 15 samples.

Results

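Drd2 striatal-type projection neurons were examined in single-nuclei RNA sequencing (snRNA-seq) of dorsal hippocampal formation (dHF) micropunches, with 1 library from each of 15 mice. Members were chosen by measured UMI counts: a nucleus was taken as Drd2-type when its barcode had at least 1000 detected genes, at least 5 UMIs (unique molecular identifiers, each a counted RNA molecule) of Pde10a, at least 3 of Rarb, at least 1 of Gad1 and Gad2 together, at least 1 of Drd2 and 0 of Drd1. This rule selected 910 of 134019 barcodes, or 910 of the 124527 barcodes with at least 1000 genes. All mice were wild-type C57BL6/J females. The 6 NP mice were virgin and nulliparous, the 4 control RE mice had reproductive experience (breeding, pregnancy, birth, lactation and pup rearing), and the 5 stress RE mice had the same experience with limited nesting material and daily separation from their pups late in the postpartum period. No source used here states pooling of animals for these libraries. The methods say that the punches took in parts of cortical, thalamic and ventral hippocampal regions, and striatum is not on that list. The labels placed 3 libraries in batch 1, with no control RE mouse among them, and 6 libraries in each of batches 2 and 3.

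Striatal projection neurons are GABAergic cells that receive dense dopamine input. They fall into a direct-pathway kind with the dopamine receptor Drd1, which raises cAMP, and an indirect-pathway kind with Drd2, which lowers it. Indirect-pathway neurons are known for the opioid peptide precursor Penk, for the adenosine receptor Adora2a, which opposes Drd2 by raising cAMP, and for the orphan receptor Gpr6, which is active without a ligand. Pde10a breaks down cyclic nucleotides, and Rarb is a retinoic acid receptor of the developing and adult striatum. Direct-pathway neurons carry the peptide precursors Tac1 and Pdyn. These neurons are the principal cells of the striatum and are not a textbook class of the dHF. The position of each nucleus within the punch was not measured.

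The promoters of Drd2, Gpr6 and Tac1, whose products set the kinds apart, are shown, from 250 bases before to 50 bases after the RefSeq start (GRCm38.p6), because both cAMP-raising and cAMP-lowering receptors mark these cells. Capitals mark TGACG or its reverse complement, the core of the cAMP response element, and a full palindromic element reads TGACGTCA. The windows are chr9:49340153-49340452 on the plus strand for Drd2, chr10:41072241-41072540 on the minus strand for Gpr6, and chr6:7554811-7555110 on the plus strand for Tac1.
Drd2: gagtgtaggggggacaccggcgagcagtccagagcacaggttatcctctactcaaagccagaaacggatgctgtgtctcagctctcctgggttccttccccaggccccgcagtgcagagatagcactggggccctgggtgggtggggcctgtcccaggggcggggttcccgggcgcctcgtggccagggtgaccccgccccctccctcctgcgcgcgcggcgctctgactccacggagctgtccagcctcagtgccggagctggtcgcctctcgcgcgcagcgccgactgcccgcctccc
Gpr6: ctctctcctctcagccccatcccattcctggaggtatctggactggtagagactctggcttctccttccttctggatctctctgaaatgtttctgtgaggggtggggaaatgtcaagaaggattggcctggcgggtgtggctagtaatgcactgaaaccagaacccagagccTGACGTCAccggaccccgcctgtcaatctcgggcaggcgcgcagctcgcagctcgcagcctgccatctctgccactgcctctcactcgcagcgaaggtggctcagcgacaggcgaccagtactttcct
Tac1: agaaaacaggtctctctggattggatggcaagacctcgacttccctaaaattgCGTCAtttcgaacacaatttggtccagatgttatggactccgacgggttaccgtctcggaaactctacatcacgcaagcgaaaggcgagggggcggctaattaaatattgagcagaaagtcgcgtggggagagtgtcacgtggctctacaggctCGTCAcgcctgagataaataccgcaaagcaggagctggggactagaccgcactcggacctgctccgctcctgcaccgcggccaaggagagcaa
The Gpr6 window held the full element, which 588 of 32851 promoters of this length held (1.79%). The Tac1 window held 2 copies of the core and no full element, and the Drd2 window held neither. The 2 windows of Pdyn in the table also held neither and are not printed. On either strand the core was in 6837 of the 32851 promoters (20.8%). These are matches of letters only. Penk and Adora2a had no entry in the promoter table. In the GENCODE annotation of GRCm38, Drd2 lies at chr9:49340627-49408177 (plus strand), Penk at chr4:4133531-4138819 (minus), Adora2a at chr10:75316877-75334784 (plus) and Gpr6 at chr10:41069977-41072285 (minus).

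The genes of the rule describe the selected nuclei and carry no test. The median member had 43 UMIs of Pde10a, 16 of Rarb, 5 of Drd2 and 4 of Gad1 and Gad2 together, in a median total of 9842 UMIs. Pde10a was far from its threshold, with no member at exactly 5 UMIs and no barcode at 4 that met the other conditions. Rarb was closer, with 26 members at 3 UMIs and 51 further barcodes at 2. With Gad1 and Gad2 together, 139 members had 1 UMI and 197 barcodes that met the other conditions had none. Drd2 had 1 UMI in 85 members. Within the same gate, 743 barcodes had neither receptor, 58 had both (32 of them with 1 UMI of Drd1), and 1000 had Drd1 without Drd2. These 1000 are called Drd1-type below.

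Marker genes outside the rule matched the label in most members. A UMI of Penk was found in 89.3% of the 910 nuclei, of Adora2a in 79.5%, of Gpr6 in 38.1%, and of Rgs9, a regulator of dopamine receptor signalling common to striatal projection neurons, in 97.4%. In Drd1-type nuclei the shares were 8.00% for Penk, 0.900% for Adora2a and 0.700% for Gpr6, at a median of 10935 UMIs. Oligodendrocytes, which should lack these genes, gave 1.42%, 0.218% and 0.100% at a median of 3203 UMIs. After every nucleus was thinned to 2000 UMIs, which left out 1 Drd2-type nucleus, no Drd1-type nucleus and 974 of 10988 oligodendrocytes, Penk was in 52.0% of Drd2-type, 1.40% of Drd1-type and 0.859% of oligodendrocyte nuclei. Adora2a was then in 34.0%, 0.6% and 0.120%, and Gpr6 in 9.57%, 0.100% and 0.0300%. Of the members, 289 carried all 3 of Penk, Adora2a and Gpr6, 446 carried 2, 124 carried 1 and 51 carried none.

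The direct-pathway peptides were rare in the members. Tac1 was found in 53 of 910 nuclei (5.82%), against 61.1% of Drd1-type nuclei and 0.774% of oligodendrocytes. Of these 53 nuclei, 40 also had Penk. After thinning, Tac1 was in 1.87% of Drd2-type and 23.3% of Drd1-type nuclei. Pdyn was found in 2.53% of Drd2-type and 37.2% of Drd1-type nuclei. Members with a single Drd2 UMI carried Penk in 64.7% and Tac1 in 16.5% of nuclei, and members with at least 8 Drd2 UMIs carried them in 95.8% and 3.75%.

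Marker support differed between mice. In the 8 mice with at least 10 members, 851 of 881 nuclei (96.6%) carried Penk, Adora2a or Gpr6. In the 7 mice with fewer, 8 of 29 did (27.6%), at a median of 19142 UMIs per nucleus and a median of 4 Rarb UMIs. None of the 4 members of NP mouse 1, the 3 of NP mouse 2 and the 1 of control RE mouse 4 had any of these markers, whereas 4 of the 6 members of stress RE mouse 5 did. Members at 3 to 5 Rarb UMIs carried a marker in 58.5% of 82 nuclei, and members with at least 6 in 97.9% of 828. Levels of genes were therefore compared only in the 8 mice, which were NP mice 3 and 6, control RE mice 1, 2 and 3, and stress RE mice 1, 3 and 4.

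**Figure D1:**
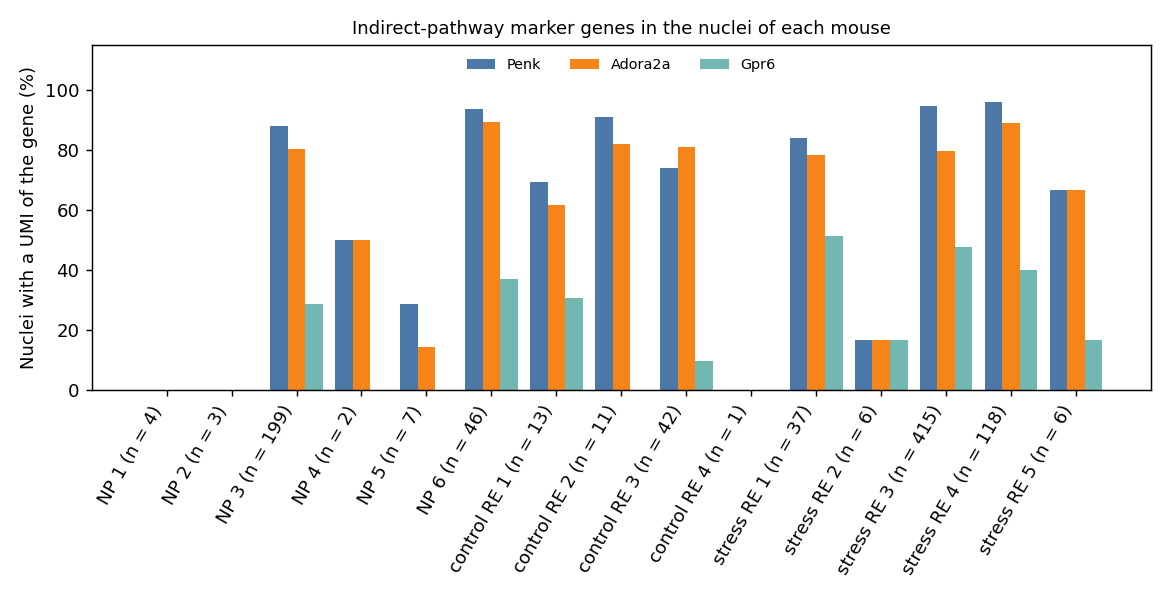
Percentage of Drd2-type nuclei of each mouse with at least 1 UMI of Penk (blue), Adora2a (orange) or Gpr6 (teal), with the number of nuclei in the axis labels. In the 8 mice with at least 10 nuclei, Penk was found in 69.2% to 95.8% of nuclei, and NP mice 1 and 2 and control RE mouse 4 show no bar because no nucleus carried any of the 3 genes.

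The number of members differed widely between mice of the same group. Among NP mice, mouse 3 had 199 members and mouse 6 had 46, and mice 1, 2, 4 and 5 had 4, 3, 2 and 7. Among control RE mice, mice 1 to 4 had 13, 11, 42 and 1. Among stress RE mice, mice 1 to 5 had 37, 6, 415, 118 and 6. Stress RE mouse 3 alone held 45.6% of all members, NP mouse 3 held 76.2% of those of NP mice, and control RE mouse 3 held 62.7% of those of control RE mice. Drd1-type nuclei were abundant in the same libraries, at 437 in stress RE mouse 3, 196 in NP mouse 3, 136 in stress RE mouse 4 and 65 in NP mouse 6, and at most 9 in each of the 7 mice with fewer than 10 Drd2-type nuclei. Libraries held 5789 to 12738 barcodes, with median depths of 3993 to 8754 UMIs, and stress RE mouse 3 had the most barcodes.

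The share of Drd2-type nuclei among barcodes with at least 1000 genes answered whether the groups differed in abundance. The 6 NP mice ranged from 0.0262% to 2.32% (median 0.0759%, mean 0.529% ± 0.906, SD, n = 6). Control RE mice ranged from 0.00991% to 0.390% (median 0.127%, mean 0.163% ± 0.161, SD, n = 4), and stress RE mice from 0.0661% to 3.75% (median 0.470%, mean 1.18% ± 1.55, SD, n = 5). All 3 groups overlapped. The 95% Wilson interval was 3.41% to 4.12% in stress RE mouse 3 and 0.00175% to 0.0561% in control RE mouse 4, and it covers counting error only. Stress RE exceeded control RE by 1.02 percentage points (two-sided exact permutation p = 0.175), stress RE exceeded NP by 0.651 points (exact p = 0.468), and control RE minus NP was -0.365 points (exact p = 0.6). The smallest p these designs allow is 0.0159, 0.00433 and 0.00952, and the Benjamini-Hochberg adjusted p over 6 tests was 0.8 for each. Within batch 2 the differences in the same order were 0.717, -0.421 and -1.14 points, and within batch 3 they were 1.85, 1.79 and -0.0626 points, with 2 mice a group. Without stress RE mouse 3, stress RE exceeded control RE by 0.374 points and NP by 0.00811 points, and without NP mouse 3 control RE minus NP was -0.00728 points. An alternative chosen after seeing the data counted only members with a UMI of Penk, Adora2a or Gpr6. Stress RE minus control RE was then 0.973 points, stress RE minus NP 0.637 points and control RE minus NP -0.336 points. The share alone cannot tell fewer cells from fewer detected RNA molecules per cell, because the gate needs a set number of UMIs. The median depth of a barcode was 4515 UMIs in stress RE mouse 3 and 5983.5 in control RE mouse 4. Where the punch lay in each mouse is not given. Drd1-type nuclei numbered 437 in stress RE mouse 3 and 2 in control RE mouse 4. The parts of depth and of punch placement in the shares were not tested.

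**Figure D2:**
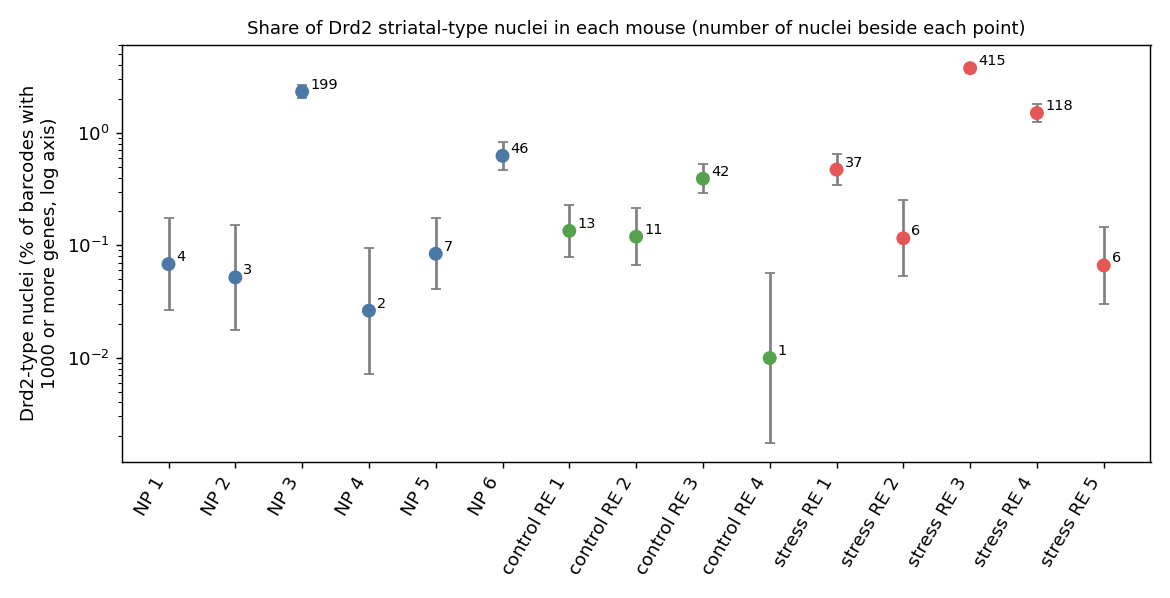
Share of Drd2-type nuclei among barcodes with at least 1000 genes in each of the 15 mice, on a log axis, with bars for the 95% Wilson interval and the number of nuclei beside each point. Mice of every group are spread over more than a factor of 10, from 0.00991% in control RE mouse 4 to 3.75% in stress RE mouse 3. The lowest point rests on 1 nucleus, which had none of Penk, Adora2a and Gpr6. In the 7 mice with fewer than 10 members, 8 of 29 members carried any of these genes.

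The balance of the receptor kinds was steadier than their number. Among nuclei with only 1 of the receptors, the Drd2-type part was 31.4% to 53.2% in the 12 mice with at least 10 such nuclei (median 45.5%). In the mice with the most nuclei it was 48.7% (exact binomial interval 45.3% to 52.1%, 852 nuclei) in stress RE mouse 3, 50.4% (45.3% to 55.4%, 395 nuclei) in NP mouse 3 and 46.5% (40.2% to 52.8%, 254 nuclei) in stress RE mouse 4. The group means were 45.9% ± 3.92 (SD, n = 5) for stress RE, 43.7% ± 11.1 (SD, n = 3) for control RE and 42.2% ± 7.04 (SD, n = 4) for NP mice. None of the differences passed the two-sided exact permutation test (control RE minus NP 1.45 points, p = 0.8; stress RE minus control RE 2.27 points, p = 0.679; stress RE minus NP 3.72 points, p = 0.381). After thinning to 2000 UMIs the part was higher in 8 of 8 mice that kept at least 10 nuclei, at 43.8% to 71.7%, and 60.7%, 67.8% and 60.4% in the 3 mice above. Over those 8 mice in thinned nuclei (2 NP, 3 control RE and 3 stress RE) control RE minus NP was -3.77 points. Stress RE minus control RE was then -1.71 points and stress RE minus NP -5.48 points. The set of mice and the depth changed together there, and the unthinned mean of control RE was already below that of NP in these 8 mice. With all 12 mice at full depth, both differences with control RE changed sign when 1 mouse was left out. The part thus moved with depth by more than it differed between groups.

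Drd2-type and Drd1-type nuclei of the same mice were compared in sums of counts per mouse and type, at 115660 to 4070700 UMIs per Drd2-type sum. Levels are in CPM (counts scaled to the same total UMIs in every sum), and fold changes are from edgeR's quasi-likelihood test with the mouse as a block and Benjamini-Hochberg adjustment over all genes tested. Of 7920 genes tested, 518 passed an adjusted p of 0.05 (6.54%), with 243 higher in Drd2-type nuclei (3.07%) and 275 lower (3.47%). The median log2 fold change of all genes tested was -0.00. Each SE given with a fold change is the absolute log2 fold change divided by the square root of the test's F statistic. Levels of the 8 mice did not overlap between the types in 87 of the 7920 genes (1.10%).

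Among genes past the count filter, the largest changes toward Drd2-type nuclei were in an adenosine receptor and an opioid peptide. Adora2a was at 148, 182 and 225 CPM in the lowest, median and highest of 8 mice in Drd2-type nuclei and at 0, 0.270 and 2.71 CPM in Drd1-type nuclei, without overlap (log2 fold change 7.64, SE 0.18, adjusted p = 7.35e-23 by edgeR). Penk was at 199, 291 and 498 CPM against 3.99, 6.35 and 11.9 CPM (log2 fold change 5.54, SE 0.12, adjusted p = 3.90e-24 by edgeR). Both were higher in Drd2-type nuclei in 8 of 8 mice, which was a condition for naming a gene by size. Penk encodes the precursor of the enkephalins, and its receptor gene Oprd1, the delta opioid receptor, was also higher, at 34.6, 53.0 and 62.1 CPM against 0, 2.79 and 51.8 CPM (log2 fold change 3.76, SE 0.46). Oprd1 was the only one of the 20 genes named by size whose levels overlapped between the types. By the same condition it was higher in Drd2-type nuclei in 8 of 8 mice.

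The named genes higher in Drd2-type nuclei also included enzymes and receptors. Adk, which phosphorylates adenosine, was at 295, 455 and 579 CPM against 63.3, 83.8 and 108 CPM (log2 fold change 2.33, SE 0.09, adjusted p = 1.35e-16 by edgeR). Nt5e, the ecto-enzyme that forms adenosine from AMP, was at 19.9, 43.8 and 69.2 CPM against 3.65, 8.60 and 10.9 CPM (log2 fold change 2.38, SE 0.17). Neither gene overlapped between the types. The kainate receptor subunit Grik3 was at 238, 309 and 390 CPM against 0, 9.67 and 20.6 CPM, also without overlap (log2 fold change 4.57, SE 0.21, adjusted p = 3.16e-07 by edgeR). The remaining named genes higher in Drd2-type nuclei were the receptor phosphatase Ptprm (2.52 on the log2 scale), the phosphoinositide phosphatase Fig4 (2.29), Vat1l (2.21) and the secreted protein gene Nell1 (2.04).

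Genes lower in Drd2-type nuclei included the peptides and transcription factors of the direct pathway. Ebf1, a transcription factor of direct-pathway development, was at 0, 12.3 and 32.2 CPM in Drd2-type and 381, 461 and 528 CPM in Drd1-type nuclei (log2 fold change -4.81, SE 0.33, adjusted p = 6.70e-05 by edgeR). Pdyn, the dynorphin precursor, was at 0, 2.39 and 8.65 CPM against 35.9, 51.1 and 63.8 CPM (log2 fold change -4.20, SE 0.20). Tac1, the substance P precursor, was at 0, 5.46 and 19.9 CPM against 64.6, 101 and 160 CPM (log2 fold change -3.74, SE 0.30). The cytokine receptor subunit Il20ra had 2 UMIs in all Drd2-type sums and 253 in Drd1-type sums. The ratio was 104.6, with a counting interval of 29.0 to 864 that leaves out variation between mice. The other named genes were Cntnap3 (-4.61 on the log2 scale), Impg1 (-4.52), the chloride channel Cftr (-3.72), Sntg2 (-3.40), Otof (-2.89) and the zinc-finger factor Ikzf1 (-2.84). All 10 were lower in Drd2-type nuclei in 8 of 8 mice, which naming required, and none overlapped between the types.

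**Figure D3:**
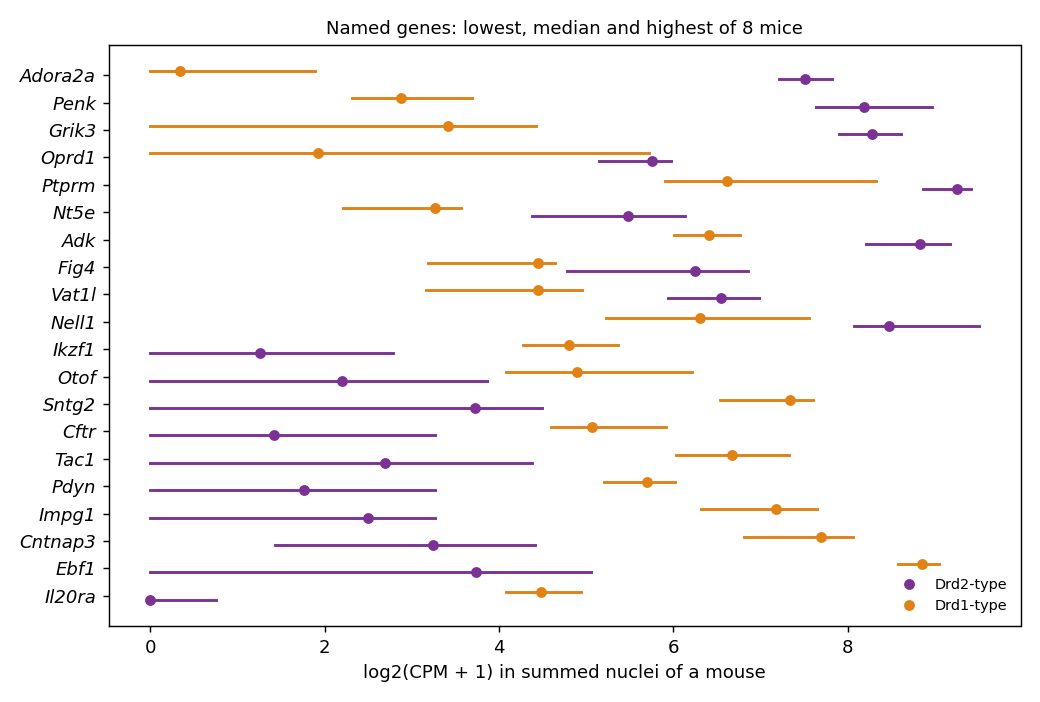
Levels of the 20 genes with the largest changes between Drd2-type (purple) and Drd1-type nuclei (orange), as log2(CPM + 1) of the summed nuclei of a mouse, with a point at the median and a line from the lowest to the highest of 8 mice. The lines of the types are apart for 19 of the 20 genes and overlap for Oprd1.

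Gene lists chosen with earlier results known gave the following counts, beside 6.54% of all genes. Of the 9 Drd2-type peptides and receptors, 4 had enough counts and 4 of 4 were higher (median log2 fold change 5.05). The other 5, Gpr6, Gpr52, Sp9, P2ry1 and Ttc12, were below the count filter. Their medians in Drd2-type against Drd1-type nuclei were 33.0 against 0.486 CPM for Gpr6, 10.2 against 0.646 CPM for the receptor Gpr52, 19.8 against 2.11 CPM for the transcription factor Sp9, 8.05 against 0.216 CPM for the purinergic receptor P2ry1, and 3.21 against 0.919 CPM for Ttc12. Of the 9 Drd1-type genes, 6 were tested and 5 were lower (Ebf1, Pdyn, Tac1, Sfxn1 and Eya1, median of the list -2.58). The direct-pathway transcription factor Isl1 was below the filter, at a median of 0 CPM in Drd2-type and 21.1 CPM in Drd1-type nuclei.

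Genes common to striatal projection neurons gave calls in both directions. Of 22, 21 were tested, with 9 higher, 2 lower and 10 that did not pass (median 0.12), from -2.84 for Ikzf1 to 1.11 for Six3. The transcription factor Six3 was at 22.7, 25.9 and 35.1 CPM in Drd2-type and 3.99, 10.6 and 16.4 CPM in Drd1-type nuclei, without overlap (log2 fold change 1.11, SE 0.16, adjusted p = 1.89e-05 by edgeR). Foxp2 was lower in 8 of 8 mice (-0.97, SE 0.10) and Foxp1 was higher (0.29, SE 0.06). Rgs9 had 642, 840 and 1038 CPM in Drd2-type and 538, 891 and 967 CPM in Drd1-type nuclei and did not pass.

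Genes of dopamine and cAMP signalling were higher more often than lower. Of 30, 28 were tested, 8 were higher, 1 was lower and 19 did not pass (median 0.10). The cAMP phosphodiesterase Pde4b was at 1461, 1829 and 2305 CPM in Drd2-type and 363, 846 and 1050 CPM in Drd1-type nuclei, without overlap (log2 fold change 1.26, SE 0.13, adjusted p = 8.47e-05 by edgeR). Arpp19, a protein kinase A substrate, was higher (0.64, SE 0.09), as were the G-protein subunits Gnb5 (0.60, SE 0.09), Gng7 (0.34, SE 0.07), Gnao1 (0.31, SE 0.08) and Gnal (0.30, SE 0.07), the G-protein regulator Rgs2 (0.44, SE 0.13) and the phosphodiesterase Pde2a (0.29, SE 0.07). The inhibitory subunit Gnai1 was lower (-0.86, SE 0.16). The changes of under 0.35 on the log2 scale were each lower in at least 1 mouse or overlapped between the types.

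Receptors for other transmitters differed in single genes. Of 27 neuromodulator receptors, 17 were tested, 5 were higher and 1 was lower (median 0.07). Among them, beside Adora2a and Oprd1, the serotonin receptors Htr4 (131, 152 and 258 CPM against 19.0, 45.9 and 124 CPM, log2 fold change 1.68, SE 0.15) and Htr2c (0.56, SE 0.08) were higher, and the metabotropic glutamate receptor Grm8 was lower (-1.10, SE 0.16). Of 24 glutamate and GABA receptor genes, 23 were tested, of which 3 were higher, among them Grik3 and Gabra3 (1.29, SE 0.20), 3 were lower (Grik4 at -0.52, Gria4 at -0.43 and Grik2 at -0.42), and 17 did not pass (median 0.02). Of 20 ion channel genes, all were tested, Scn4b and Kcna4 were higher and Ryr1 and Kcnj3 were lower (median -0.02).

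Lists that mark compartments and position within the striatum gave calls in both directions. Of 4 matrix markers, the transcription factor Zfhx3 (155.6 to 470 CPM against 61.1 to 173 CPM), Id4 (0.64, SE 0.13) and Epha4 (0.28, SE 0.08) were higher and Sv2b did not pass (median 0.46). Of 7 striosome markers, Tshz1 was lower (-0.93, SE 0.14) and 6 did not pass (median -0.30). Of 5 markers of eccentric projection neurons, 2 were tested and Otof was lower. Of 5 dorsal markers, 4 were tested, with Gpr155 higher (0.37, SE 0.09) and Reln lower (-1.65, SE 0.21), and of 6 ventral markers only Crym was tested and was lower (-0.55, SE 0.11). None of 9 markers of the central and medial amygdala had enough counts, and in the Drd2-type sums Prkcd had 159 UMIs, Nts 81, Tacr1 75, Zic1 70 and Calcrl 66, whereas Crh, Otp and Tac2 had 0. Of 10 immediate early genes, 6 were tested, Npas4 (0.63, SE 0.16) and Junb (0.71, SE 0.15) were higher, and all 6 had positive values (median 0.33). The neurotensin gene Nts was on both the ventral and the amygdala list and had 81 UMIs in Drd2-type and 3 in Drd1-type sums.

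Of 17 hormone receptors, 9 were tested and 2 passed: the thyroid hormone receptor Thrb was higher (0.31, SE 0.08) and the growth hormone receptor Ghr was lower (-0.77, SE 0.11), with a median of 0.03. In Drd2-type nuclei the glucocorticoid receptor Nr3c1 was at 81.6, 119 and 212 CPM and the progesterone receptor Pgr at 34.6, 43.6 and 73.9 CPM, and neither passed. The oxytocin receptor Oxtr had 3 UMIs and the oestrogen receptor Esr1 had 14 in all Drd2-type sums. Of 10 genes of monoamine handling and dopaminylation, 2 were tested and neither passed. The transglutaminase Tgm2 had 11 UMIs in the members of 8 mice, and the transporters Slc6a3, Slc6a4 and Slc6a2 had 0.

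**Figure D4:**
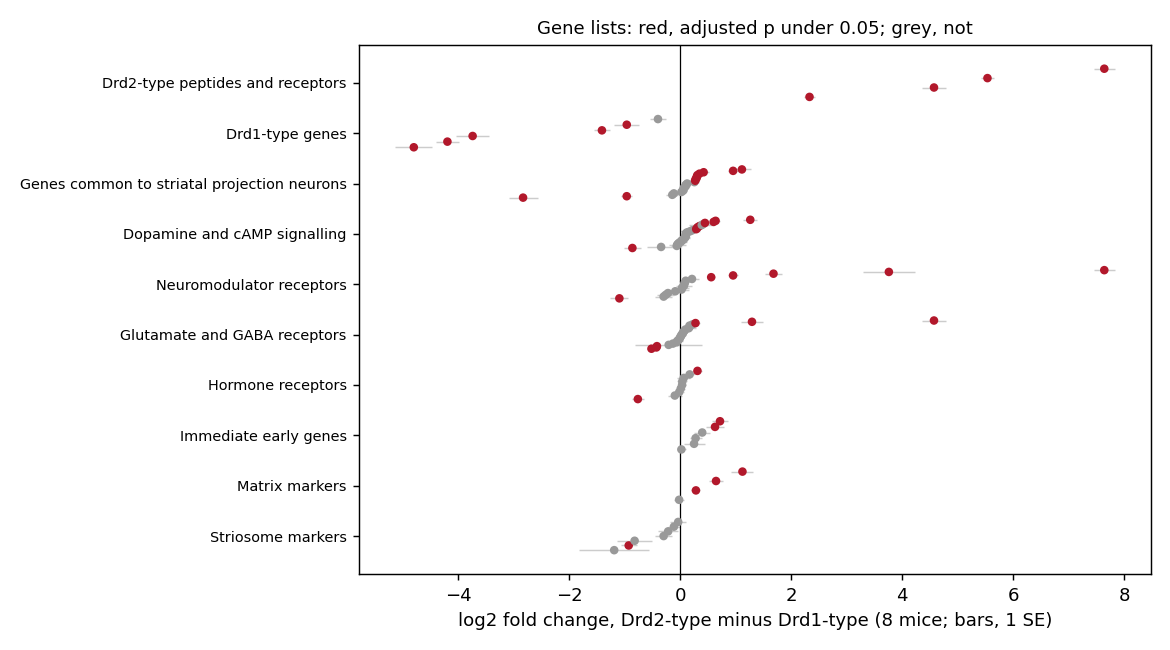
Log2 fold change of Drd2-type minus Drd1-type nuclei for the tested genes of 10 lists (8 mice, horizontal bars for 1 SE), with genes past an adjusted p of 0.05 in red and others in grey. The 4 tested Drd2-type genes lie at 2.33 to 7.64 and the 5 called Drd1-type genes at -4.81 to -0.97, and most genes of the other lists lie near 0.

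Marker sums of other cells were compared between the types. Over 8 mice the summed level of 5 oligodendrocyte markers was 69.2 to 551 CPM in Drd2-type and 151 to 515 CPM in Drd1-type nuclei, against 10271 to 15503 CPM in oligodendrocytes. The sum of 5 markers of medial ganglionic eminence interneurons was 8.65 to 586 CPM in Drd2-type and 133 to 458 CPM in Drd1-type nuclei, and the highest Drd2-type value was in stress RE mouse 1. The sum of 5 markers of caudal ganglionic eminence interneurons was 237 to 1535 CPM in Drd2-type, 638 to 1415 CPM in Drd1-type and 3027 to 6633 CPM in other GABAergic nuclei, and the highest Drd2-type value was in control RE mouse 1. The sum of 3 cholinergic markers was 0 to 15.3 CPM and 0 to 13.2 CPM, of 5 excitatory markers 51.0 to 128 CPM and 17.6 to 143 CPM, of 3 oligodendrocyte precursor markers 0 to 174 CPM and 18.9 to 86.8 CPM, and of 5 microglial markers 22.9 to 112 CPM and 51.8 to 103 CPM. The sum of 5 astrocyte markers was 787 to 1141 CPM in Drd2-type and 678 to 1148 CPM in Drd1-type nuclei, above the 188 to 547 CPM of other GABAergic nuclei and the 301 to 381 CPM of oligodendrocytes. Of these 5, Slc4a4, a bicarbonate transporter gene, had 10200 UMIs over the 910 Drd2-type nuclei and was found in 98.0% of them and in 97.4% of Drd1-type nuclei, so most of the sum came from this gene. The part of these markers in the differences between types was not tested. Scrublet marked 143 members (15.7%) as doublets, against 172 Drd1-type nuclei (17.2%) and 7.47% of all barcodes. Without marked nuclei, control RE mouse 2 fell to 9 members and left the fit, and 651 of 8331 genes passed over 7 mice.

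Other GABAergic nuclei of the same 8 mice (at least 3 UMIs of Gad1 and Gad2 together, at most 1 of Pde10a, 0 of Rarb, and at most 1 of Slc17a7 and Slc17a6 together) gave a wider contrast. Of 5646 genes tested, 2486 passed (44%), with 1262 higher in Drd2-type nuclei (22.4%) and 1224 lower (21.7%). The gate of these nuclei was set on Pde10a and Rarb, and genes that go with it were favoured by that choice. Over all 15 mice it held 688 nuclei, at a median of 5709.5 UMIs. Meis2 was found in 45.5% of them, Sst in 4.65%, Lamp5 in 4.07%, Lhx6 in 2.76%, and Pvalb and Vip in 2.33% each. Of 22 genes common to striatal projection neurons, 19 were tested and 19 were higher (median 3.61, against -0.04 over all genes tested). The lowest was Meis2 (0.73), whose sign turned negative in thinned nuclei. The sodium channel subunit Scn4b was at 79.4, 130 and 211 CPM in Drd2-type and 0, 1.40 and 8.94 CPM in other GABAergic nuclei (log2 fold change 6.07, SE 0.35, adjusted p = 4.64e-10 by edgeR). Ppp1r1b, which encodes the dopamine-regulated phosphatase inhibitor DARPP-32, was at 33.1, 81.4 and 128 CPM against 0, 1.34 and 7.71 CPM (5.58, SE 0.34), and Rgs9 at 642, 840 and 1038 CPM against 5.96, 17.1 and 31.2 CPM (5.83, SE 0.23).

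Genes with no or almost no counts in other GABAergic nuclei were given as bounds. The bounds and counting intervals pool the UMIs of 8 mice and leave out variation between mice. Gm49906 had 2020 UMIs and Sh3rf2 1865 UMIs in the Drd2-type sums of 8 mice and 0 in the other GABAergic sums, at least 200.4-fold and 185-fold higher when 3 counts over the group are allowed for. Adora2a had 1802 UMIs against 1, a ratio of 536 (counting interval 96.3 to 21184), Gm50024 689 against 1 (ratio 205, interval 36.8 to 8100) and Mhrt 562 against 2 (ratio 83.6, interval 23.2 to 691). Gm19410 (5.60) and Gm10754 (5.54) completed the 10 largest. The genes lowest in Drd2-type nuclei were 2610307P16Rik (-6.65), the interneuron transcription factor Dlx1 (-6.16, at 0, 0.563 and 4.15 CPM against 34.9, 145 and 236 CPM), Vav2 (-4.66), the neuregulin receptor Erbb4 (-4.25, at 17.3, 182 and 333 CPM against 2865, 3476 and 5477 CPM), Lgr5 (-4.02), Kcnmb2 (-3.94), Dlx1as (-3.89), Kcnip1 (-3.85), St6gal1 (-3.46) and Ttc28 (-3.35). Dlx1 and Dlx1as lie on opposite strands of the same locus, and reads of overlapping genes are uncertain. In all 20, the levels of the 8 mice did not overlap, as in 14.9% of genes tested.

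Whether reproductive experience and postpartum stress changed genes within Drd2-type nuclei was tested over 2 NP, 3 control RE and 3 stress RE mice. No gene of 8711 passed an adjusted p of 0.05 by edgeR in any of the 3 comparisons (0%). At an unadjusted p under 0.05 there were 561 genes for stress RE minus control RE (6.44%, 344 higher and 217 lower), 324 for control RE minus NP (3.72%, 149 higher and 175 lower) and 335 for stress RE minus NP (3.85%, 266 higher and 69 lower). DESeq2 called 3, 0 and 0 genes. In simulated counts with the same mice, edgeR found 78 of 97 tested genes changed by a log2 of 2 and 30 of 94 changed by a log2 of 1 for stress RE minus control RE, 75 of 98 and 22 of 95 for control RE minus NP, and 84 of 97 and 42 of 94 for stress RE minus NP. Group differences of about that smaller size were mostly not detectable at this depth, where the smallest control RE sum came from 11 nuclei.

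Penk had the smallest unadjusted p for stress RE minus control RE. It was at 324 and 255 CPM in NP mice 3 and 6, at 258, 208 and 199 CPM in control RE mice 1, 2 and 3, and at 397, 498 and 434 CPM in stress RE mice 1, 3 and 4. Every stress RE mouse was above every mouse of the other groups, and NP and control RE mice overlapped. Picking a gene by small p favours such separation, and its share over all genes was not counted. By edgeR the log2 fold change between the RE groups was 0.99 (SE 0.19) with an adjusted p = 0.589, so the gene failed the adjustment, whereas DESeq2 gave an adjusted p of 0.0125. Over the alternatives tried, the fold change was 0.56 to 1.15 and the adjusted p 0.00411 to 1.00. In Drd1-type nuclei of the same mice Penk had 4.52 and 4.51 CPM for NP, 3.99, 7.29 and 5.41 CPM for control RE, and 10.9, 11.9 and 9.72 CPM for stress RE, from 1 to 55 UMIs a mouse. In oligodendrocytes it was at 12.0 and 1.63, at 2.77, 3.79 and 1.47, and at 1.84, 18.4 and 8.77 CPM in the same order. The difference between Drd2-type and Drd1-type nuclei in the change of Penk was 0.13 (SE 0.64, adjusted p = 1.00 by edgeR). When every mouse was cut to the same number of nuclei, the fold change of Penk between the RE groups was 0.56 (adjusted p = 0.998 by edgeR), and with mice of at least 5 nuclei it was 0.61. The part of free RNA in these values was not tested.

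The other indirect-pathway genes gave mixed values. Gpr6 had 32.9 and 24.8 CPM for NP, 33.1, 0 and 10.2 CPM for control RE, and 42.2, 70.7 and 45.6 CPM for stress RE (difference of the RE groups 1.93, SE 0.51, adjusted p = 0.663 by edgeR), where the control RE values rest on 5, 0 and 4 UMIs. Adora2a was at 179 and 160, at 185, 225 and 148, and at 179, 188 and 200 CPM (0.05, SE 0.19, adjusted p = 1.00 by edgeR), and all groups overlapped. Grik3 (-0.04, SE 0.22) and Adk (-0.54, SE 0.20) did not pass either. Drd2, which chose the nuclei, was at 606 and 486, at 529, 432 and 586, and at 454, 479 and 626 CPM.

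The other genes with the smallest p are given by their values. Wwox, an oxidoreductase gene, was at 536, 363 and 528 CPM in control RE and 284, 225 and 235 CPM in stress RE mice, without overlap (-1.004, SE 0.20, adjusted p = 0.589 by edgeR and 0.0125 by DESeq2), and at 234 and 310 CPM in NP mice. Manea had 0, 0 and 1 UMIs in control RE mice against 15, 99 and 29 in stress RE and 36 and 15 in NP mice. Its ratio to control RE was 15.4 (counting interval 2.77 to 609) for stress RE and 11.0 (1.98 to 436) for NP. These intervals pool the UMIs of a group and leave out variation between mice. Over mice, stress RE minus control RE had an adjusted p = 0.589 by edgeR. Reln, an extracellular matrix protein, was at 150 and 107 CPM in NP and 33.1, 17.3 and 35.7 CPM in control RE mice (difference -2.05, SE 0.42, adjusted p = 1.00 by edgeR), where the control RE values rest on 5, 2 and 14 UMIs. Stress RE mice had 59.1, 148 and 96.8 CPM of Reln. Reln, already named for its small p, is 1 of 5 dorsal striatum markers, of which 4 were tested. For control RE minus NP their median was -1.27, with 3 at an unadjusted p under 0.05 by edgeR, beside 3.72% of all genes. For stress RE minus control RE their median was 1.43, also with 3, beside 6.44% of all genes. None was called. The 2 tested ventral markers ranged from -1.74 to 0.928 for control RE minus NP and from -0.473 to 2.15 for stress RE minus control RE. In each contrast 1 of them had an unadjusted p under 0.05 by edgeR. Over all genes tested, the median was -0.02 for control RE minus NP and 0.01 for stress RE minus control RE. For 7 striosome markers the medians were -0.486 and 0.372 in that order. None of the dorsal, ventral and striosome markers was called. The part of position within the striatum was not tested. Fig4 was at 98.2 and 82.3 CPM in NP and 26.5, 51.9 and 38.2 CPM in control RE mice (-1.27, SE 0.33). For stress RE minus NP, the metallothionein Mt1 was at 10.2 and 9.01 CPM in NP and 23.6, 33.7 and 26.3 CPM in stress RE mice (1.49, SE 0.32, adjusted p = 0.973 by edgeR), Atp5g1 at 13.9 and 11.3 against 28.7, 57.5 and 33.2 CPM (1.64, SE 0.36), and the histone gene H3f3b at 29.2 and 29.3 against 69.2, 93.8 and 51.8 CPM (1.25, SE 0.28). None of these genes overlapped between the groups named. They were picked by smallest p, which favours such separation, and its share over all genes was not counted. None of these genes passed the adjustment by edgeR over the 8 mice with the filter on low counts. Wwox passed with that filter once doublets were left out, over 7 mice (adjusted p = 0.0307 by edgeR). Without that filter, by edgeR, Penk, Gpr6, Wwox, Manea and Fig4 passed for stress RE minus control RE, and Reln passed for both contrasts with control RE. For stress RE minus NP, Atp5g1 and H3f3b passed. Of the 17 genes that passed there, 16 were higher. The smallest adjusted p was that of the interneuron marker Sst (7.06 on the log2 scale). Npy (2.97), Cntnap4 (1.93), Rpl21, Gapdh, Ubb, Ppia and Eif1 were among the other higher genes. The median mitochondrial percentage of members was 0.0432 and 0.0499 in NP mice and 0.0826, 0.0755 and 0.0504 in control RE mice. In stress RE mice it was 0.0865, 0.109 and 0.0660. The parts of RNA quality and of RNA from other cells in these values were not tested.

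**Figure D5:**
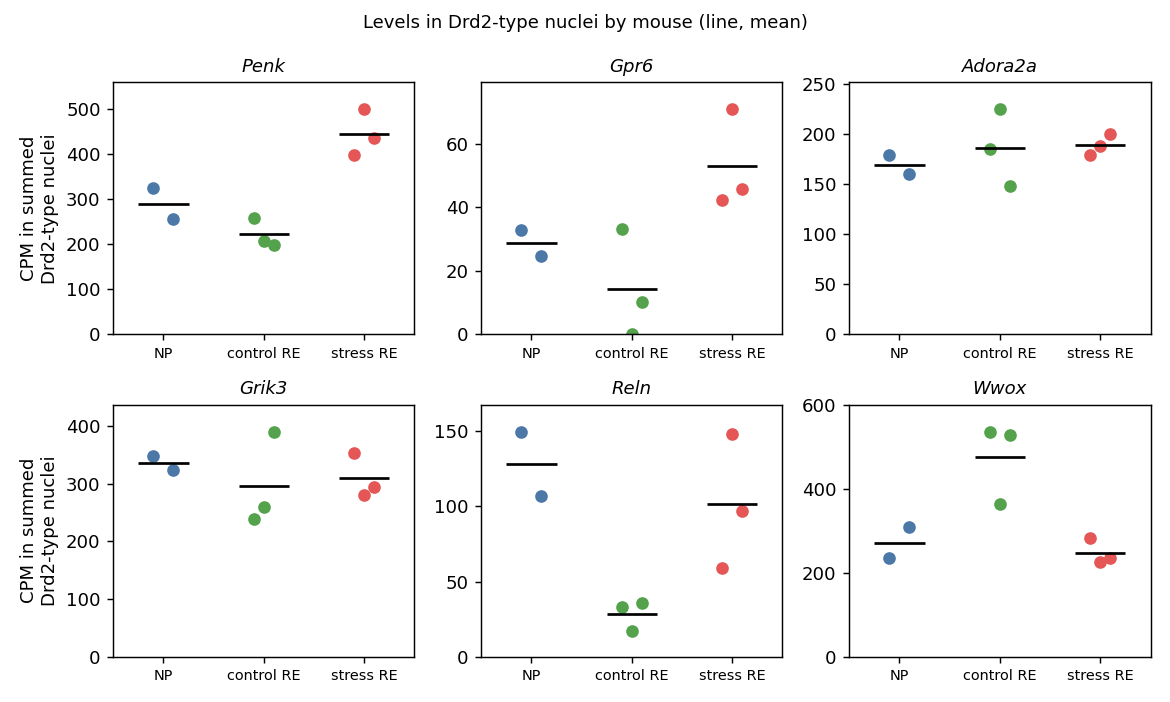
CPM in summed Drd2-type nuclei of each of 8 mice for Penk, Gpr6, Adora2a, Grik3, Reln and Wwox, with a line at the mean of each group. Penk lies at 397 to 498 CPM in stress RE and 199 to 258 CPM in control RE mice, and Adora2a overlaps between all groups.

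The change of stress RE minus control RE was also compared between the kinds. Of 9952 genes, 0 passed by edgeR and 0 by DESeq2, and 482 had an unadjusted p under 0.05 (4.84%). In simulated counts for this comparison, 54 of 99 genes with a difference of a log2 of 2 and 15 of 91 with a log2 of 1 were found.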

How the data were processed

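Nuclear RNA of dHF micropunches was profiled with 10x Chromium 3' v3.1 chemistry. For each of 15 mice the authors deposited a filtered table of UMI counts per barcode, whole numbers made with Cell Ranger (7.1.0 per the processing notes, 7.0.0 in the file headers) against mm10 (the notes also name GRCm39; the methods give the mm10 reference), with no normalization and no removal of free RNA or doublets. The steps the methods describe in Seurat with SoupX and DoubletFinder are not in these files. Groups and batches were taken from the labels.

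Each library was gated as described. Libraries shared 2211 of 131768 barcode sequences, and 32 members had a barcode also seen in another library, though none was a member in both. Counts were summed per mouse and type for mice with at least 10 nuclei. Types were compared with the mouse as a block, since both types come from the same animal, and groups in a single fit, with edgeR 4.0.16 (filterByExpr, TMM, quasi-likelihood) in R 4.3.3. A Benjamini-Hochberg adjusted p under 0.05 counted as a call. Genes of the rule were left out of tests. Shares were compared with exact permutation tests over mice (scipy 1.17.1). DESeq2 1.42.0 was an alternative, and Scrublet in scanpy 1.11.5 marked doublets at 0.8% per 1000 barcodes. Fits were tested on simulated data, in which stress RE minus NP also gave 20 calls among unchanged genes. Paired fits apply to types only, because replicate numbers of the groups are in accession order and pair no mice. Sequencing depth limits precision, as sums held 115660 to 4070700 UMIs.

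Named genes were the 10 largest changes in each direction among called genes with at least 20 CPM in the higher type and the same direction in every mouse, and for groups the 3 smallest p where none was called. Genes on the fixed lists were named too. The members and the lists were chosen with earlier results of these data known. Alternatives covered thresholds, depth, doublets, filters, batch, tool and leaving out each mouse. No correction for free RNA was made. Some listed genes are counted but not reported here by name.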

Additional observations from a re-analysis of the deposited data

Results flagged for a closer look

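In NP mice, mouse 3 lay far from the others in its share of Drd2-type nuclei, at 2.32%. Its gap to the nearest NP mouse was 0.740 of the whole range of the 6 mice, above the critical value of 0.625. Of 5 groups tested, this was the 1 flagged. Chance flags about 1 in 20 only where values are normally distributed. The NP shares were skewed (median 0.0759%, mean 0.529%), and the chance rate for such values was not tested. In this mouse 97.5% of the 199 nuclei carried Penk, Adora2a or Gpr6.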

How the results depend on the processing

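Share differences kept their direction and did not pass the test under the alternatives fitted over all batches, while within batch 2 stress RE minus NP was -0.421 points. They ranged from -0.466 to -0.00728 points (control RE minus NP), 0.374 to 1.29 (stress RE minus control RE) and 0.00811 to 1.01 (stress RE minus NP) when each mouse was left out. The Drd2-type part of single-receptor nuclei did not keep its direction. Thinned, which also cut the 12 mice to 8, the differences in that order were -3.77, -1.71 and -5.48 points. With at least 2 receptor UMIs, which also left only 3 stress RE, 3 control RE and 2 NP mice, stress RE minus control RE was -3.41. Stress RE minus NP was then -0.236. Leaving out each mouse gave -3.30 to 7.57, -3.85 to 7.02 and 0.758 to 6.44 points, with control RE minus NP at -3.30 without control RE mouse 3 and -1.52 without NP mouse 1, and stress RE minus control RE at -3.85 without control RE mouse 2. The cause was not tested.

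Against Drd1-type nuclei, 518 genes passed with the mouse as a block and 215 with no replicate block, 270 in thinned nuclei, where fewer genes were tested, and 352 to 595 when each mouse was left out. Against other GABAergic nuclei, 2486 became 4240 with no filter on low counts, 951 in thinned nuclei and 2024 to 2656 when each mouse was left out. The log2 fold change of Meis2, Drd2-type minus other GABAergic, turned from 0.73 to -0.0115 in thinned nuclei. For stress RE minus control RE, 0 calls became 3 by DESeq2 (Cntnap5a, Penk, Wwox), 31 with no filter and 2 without doublets (Pex5l, Wwox), a fit over 7 mice because control RE mouse 2 fell to 9 nuclei. For control RE minus NP they became 10 with no filter, and for stress RE minus NP 17 with no filter and 2 at equal nuclei (Ptprz1, Sox5). The difference between types gave 6 with no filter and 0 to 2 when each mouse was left out. Stress RE minus control RE kept 0 calls when each mouse was left out, at the low power described above. The contrasts with NP kept 0 calls when control RE and stress RE mice were left out. Leaving out an NP mouse left that group without a replicate, so those contrasts are not read there. At least 20 nuclei a mouse left too few control RE mice for 2 of the contrasts. An alternative chosen after seeing the data, which kept nuclei with a UMI of Penk, Adora2a or Gpr6, gave 2480 calls against other GABAergic nuclei. It selects on Penk and is not a check of Penk.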

Other observations

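Nuclei with both receptors, which the rule left out, carried the peptides of both pathways as a set. Single nuclei with both peptides were not counted. Of these 58 nuclei, 53.4% had Penk, 43.1% had Adora2a and 46.6% had Tac1, at a median of 16728 UMIs, and Scrublet marked 11 of them (19.0%). The 743 nuclei of the gate with neither receptor had Penk in 8.34%, at a median of 13925 UMIs.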
